A study of Mus musculus with 24 samples.

Results

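Tiles of 100 bp that were highly methylated in heart but not in liver or brain were described across 24 mouse methylomes. A tile entered the set when it was covered in all 3 tissues, its mean level in heart was at least 0.3 above the mean in liver and at least 0.3 above the mean in brain, and the liver and brain means lay within 0.2 of each other. The tiles were thus selected on the tissue means themselves, and every level that sets heart against liver or brain is given as a description with no test. The rule found 516 of 758685 common autosomal tiles, or 0.0680%. All mice were C57Bl/6J at 24 weeks, with no treatment or introduced allele named, and tissue, not gender, was the grouping used. Liver was profiled in 12 mice (6 male, 6 female), and brain and heart in 6 mice each (3 male, 3 female), which were among those used for liver, so the tissues share animals. DNA came from one section per organ: the caudal end of the left liver lobe, the rostral brain and the apex of the heart. Each library measured cytosine methylation by reduced representation bisulphite sequencing (RRBS), which samples CpG-rich fragments cut by a restriction enzyme, and a level is the methylated share of the calls in a tile, from 0 to 1.

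In mammals methyl groups sit mainly on the cytosine of CpG dinucleotides, and most CpGs outside CpG islands are methylated in adult tissues. Loss of methylation at promoter flanks and distal elements accompanies the binding of transcription factors during differentiation, so a site can stay methylated in one tissue and lose methylation in others. A tissue section holds several cell types, and a tile at an intermediate level may differ in the mix of cells or in the level within one cell type, which cannot be told apart here.

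The sequences of 9 of the runs described further on are shown because they are the places where the heart level stood farthest above both other tissues, where several genes of one pathway or of heart development carried a heart-high tile, or, for Hhex, where a long run crossed coding exons. They are on the plus strand of mm10, taken from the RefSeq assembly of that build, with each CpG in capitals. The first lies between genes upstream of Dpt at chr1:164704701-164705000. The next 4 are from genes of sterol and fatty acid synthesis: Hmgcs1 (chr13:119692401-119692500), Cyp51 (chr5:4103301-4103500), Sqle (chr15:59317101-59317300) and Fasn (chr11:120822801-120822900). The last 4 are from the noncoding RNA gene Hdnr downstream of Hand2 (chr8:57346101-57346200), from Tbx5 (chr5:119841801-119842100), from Hhex (chr19:37437301-37437400) and from Rtn1 (chr12:72285801-72286000).
upstream of Dpt: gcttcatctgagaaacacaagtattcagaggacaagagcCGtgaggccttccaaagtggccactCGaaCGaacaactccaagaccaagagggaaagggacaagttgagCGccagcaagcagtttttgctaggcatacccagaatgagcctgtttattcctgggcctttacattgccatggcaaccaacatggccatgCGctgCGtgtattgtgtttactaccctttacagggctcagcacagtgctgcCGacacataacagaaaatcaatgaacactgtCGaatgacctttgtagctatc
Hmgcs1: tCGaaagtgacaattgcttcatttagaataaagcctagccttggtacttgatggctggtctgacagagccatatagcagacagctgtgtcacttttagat
Cyp51: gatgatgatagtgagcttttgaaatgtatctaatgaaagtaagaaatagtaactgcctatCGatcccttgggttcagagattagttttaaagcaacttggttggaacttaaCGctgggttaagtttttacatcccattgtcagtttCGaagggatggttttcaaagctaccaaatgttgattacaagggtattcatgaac
Sqle: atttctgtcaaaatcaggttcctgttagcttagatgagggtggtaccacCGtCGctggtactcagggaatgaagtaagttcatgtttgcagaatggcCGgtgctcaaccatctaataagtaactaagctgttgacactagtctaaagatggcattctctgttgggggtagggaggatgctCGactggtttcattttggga
Fasn: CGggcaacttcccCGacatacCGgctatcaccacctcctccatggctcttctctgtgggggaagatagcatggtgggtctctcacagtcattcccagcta
Hdnr: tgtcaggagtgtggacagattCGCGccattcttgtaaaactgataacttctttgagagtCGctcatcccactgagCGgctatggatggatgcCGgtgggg
Tbx5: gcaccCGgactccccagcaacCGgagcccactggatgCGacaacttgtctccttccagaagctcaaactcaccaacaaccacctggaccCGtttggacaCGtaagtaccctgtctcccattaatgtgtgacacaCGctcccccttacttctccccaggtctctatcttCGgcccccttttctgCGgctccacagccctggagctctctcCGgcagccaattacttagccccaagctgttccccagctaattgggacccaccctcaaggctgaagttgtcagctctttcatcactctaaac
Hhex: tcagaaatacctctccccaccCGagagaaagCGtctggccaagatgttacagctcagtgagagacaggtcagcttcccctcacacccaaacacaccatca
Rtn1: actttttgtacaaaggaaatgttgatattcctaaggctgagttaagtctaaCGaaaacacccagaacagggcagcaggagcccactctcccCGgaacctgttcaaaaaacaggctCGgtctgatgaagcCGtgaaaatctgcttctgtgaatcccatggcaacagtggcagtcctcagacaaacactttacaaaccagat

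The Hmgcs1 tile held a single CpG, whereas the 300 bp run at Tbx5 held 9 and the run upstream of Dpt held 8. The 300 bp at Dpt contained no CCGG, the site cut by MspI, and the run at Tbx5 contained 3.

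Over all common tiles the heart libraries had lower mean levels (0.596 to 0.603) than those of liver (0.648 to 0.661) and brain (0.637 to 0.664), and the median tile was 0.035 lower in heart than in liver and 0.03 lower than in brain. Tiles low only in heart were far more numerous than tiles high only in heart, 16012 against 516, while 8507 tiles were high only in liver and 5109 only in brain. The tissue labels were checked at the starts of marker genes, where a tile that varied by more than 0.2 between tissues was lowest in liver in 28 of 28 cases for hepatocyte genes, lowest in heart in 14 of 16 cases for heart muscle genes and lowest in brain in 11 of 17 cases for neuron and glia genes.

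The median level of the 516 tiles was 0.744 in heart, 0.267 in liver and 0.35 in brain, while the medians over all common tiles were 0.719, 0.808 and 0.795. The heart level was close to that of a typical tile, and the other tissues were below it, as the rule requires of any tile it takes. The gap, defined as the heart mean minus the higher of the other 2 means, had a median of 0.356 and ran from the threshold of 0.3 to 0.625. It reached 0.4 in 128 tiles, 0.5 in 20 and 0.6 in 2. Heart levels were at least 0.8 in 185 tiles and below 0.5 in 23. Liver and brain were both below 0.2 in 61 tiles and both at least 0.4 in 93, so partial methylation in the low tissues was common. Brain was above liver in 349 tiles and below it in 167.

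The libraries separated well in these tiles. Every heart library was above every liver and brain library in 481 of the 516 tiles (93.2%), as against 0.430% of all common tiles, a contrast that follows largely from the rule. The groups overlapped in the other 35. The mean over the 516 tiles lay between 0.723 and 0.74 in the 6 heart libraries (SD 0.00595), between 0.299 and 0.398 in the 6 brain libraries (SD 0.0382) and between 0.271 and 0.324 in the 12 liver libraries (SD 0.0193). Heart was therefore the most uniform tissue and brain the most variable. In a single tile the median SD between brain libraries was 0.0946 as against 0.0461 over all tiles, but it was also 0.0858 in tiles low only in heart, 0.0783 in those high only in liver and 0.0901 in those high only in brain, so a wide spread in brain was shared by these sets. The median SD was 0.0676 in liver and 0.0548 in heart (0.0445 and 0.0434 over all tiles). One brain library had the highest mean of its tissue over the heart-high tiles (0.398) and the lowest over all tiles (0.637), and it was the highest of the 6 brain libraries in 196 heart-high tiles. Leaving that library out raised the number of tiles that met the rule to 580.

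**Figure D1:**
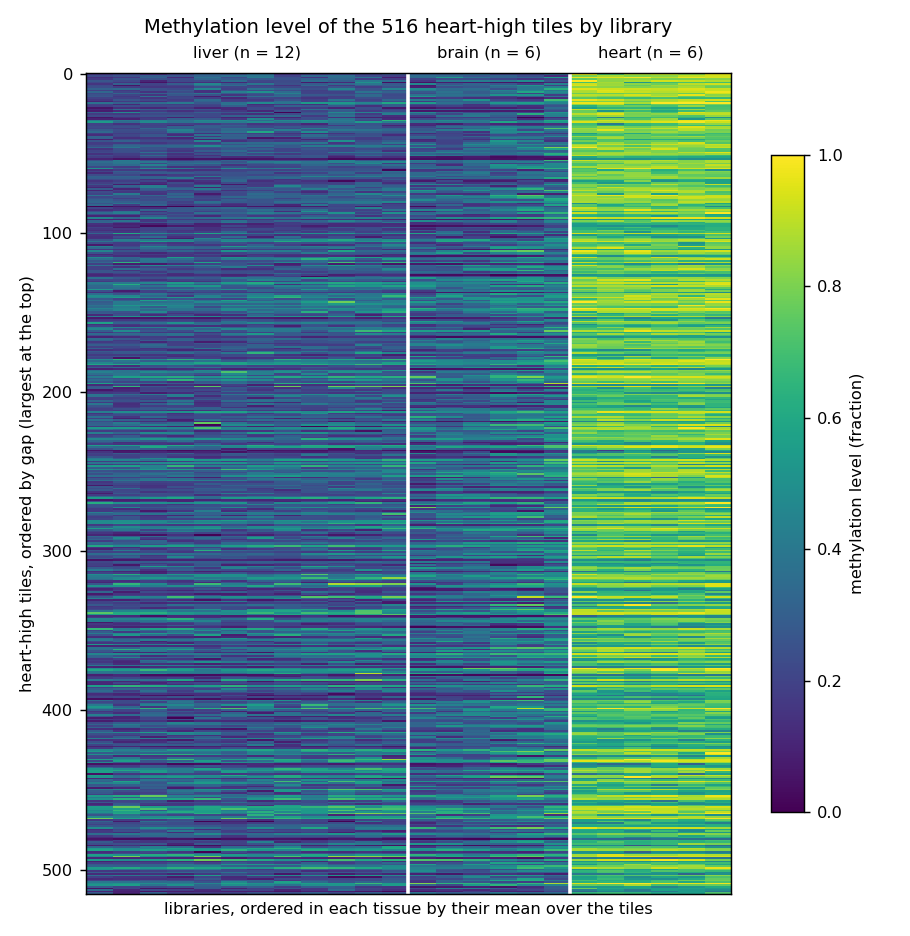
Methylation level (fraction, colour) of each heart-high tile (rows, ordered by gap) in each library (columns, ordered within a tissue by their mean over these tiles). The 6 heart libraries are uniformly high (means 0.723 to 0.74), while the brain libraries on the right of their block (up to 0.398) are higher than those on its left (0.299).

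The values next to the threshold show how the set grades into the tiles outside it. The 2 tiles just inside had a gap of 0.3002: one between Hand2 and Hdnr, at 0.0724 in liver, 0.117 in brain and 0.417 in heart, and one between genes on chromosome 13, at 0.238, 0.341 and 0.641. The 2 just outside had a gap of 0.2995: an intronic tile of Tmem178, at 0.365, 0.343 and 0.665, and an intergenic tile on chromosome 13, at 0.156, 0.214 and 0.513. In all 4 the lowest heart library was above the highest of the other 18.

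Position and CpG content were not used to choose the tiles. Introns held 285 of the 516 tiles (55.2%, as against 36.2% of all common tiles). The first intron of a RefSeq transcript held 120 tiles, a count not made over all tiles, so it shows no excess. Coding sequence held 12.8% (all tiles 10.7%), other exons 3.1% (3.63%), promoters, taken as the 1000 bp upstream of a start, 4.65% (7.42%), and intergenic sequence 24.2% (42.1%). With promoters of 2000 bp the promoter share was 7.17% (all tiles 9.41%). The promoter share was below that of all tiles in the whole set but not among the 128 tiles with a gap of at least 0.4, where it was 8.59%. That higher share includes tiles of a single stretch at the start of the noncoding gene Gm13205 (gaps 0.4002, 0.4258, 0.4563 and 0.4704), so it leans on neighbouring tiles. Shortly downstream of gene starts, 93 tiles (18%) lay 1000 to 5000 bp downstream of the nearest start, as against 6.85% of all tiles, 11.5% of the tiles high only in liver and 8.51% of those high only in brain.

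CpG islands were touched by 32 tiles (6.2%, all tiles 10.6%), whereas 83 tiles (16.1%, all tiles 8.07%) lay on island shores, the 2000 bp on either side of an island. The shares for islands and shores were 4.7% and 9.1% in tiles high only in liver, 1.51% and 7.73% in those high only in brain and 0.162% and 4.12% in those low only in heart, so shores exceeded islands in each of these sets. The tiles in islands had lower levels in each tissue (medians 0.172 in liver, 0.12 in brain and 0.548 in heart) than those outside islands and shores (0.284, 0.372 and 0.773), at a similar median gap of 0.353 and 0.358. A tile held a median of 3 CpGs (all tiles 2) with a mean of 3.24 (3.39), and 15.9% held a single CpG (24.8%). Repeat-masked sequence filled at least 50 bases of 3.68% of the tiles, as against 20% of all tiles and 3.5% of those high only in liver. Most of the set was therefore unique sequence outside CpG islands. No test of these shares was run, since tiles next to each other are not independent.

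**Figure D2:**
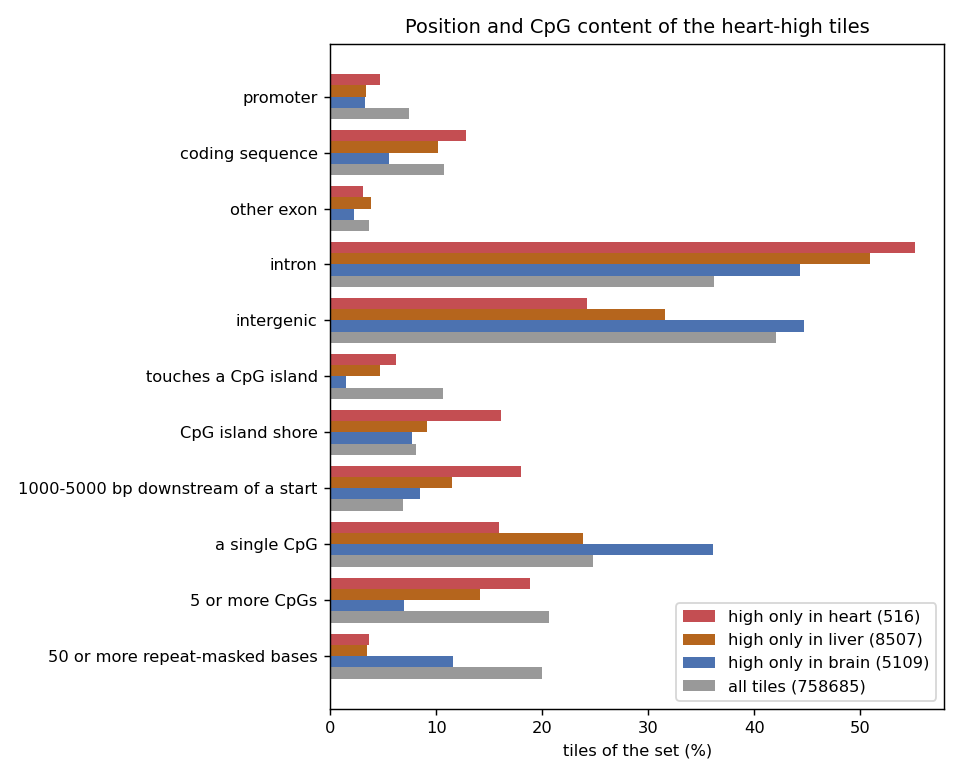
Share of tiles (%) by gene position, CpG island context, distance from a gene start, CpG number and repeat content, for tiles high only in heart, only in liver or only in brain and for all common tiles. Among the heart-high tiles introns (55.2%), island shores (16.1%) and the stretch 1000 to 5000 bp downstream of a start (18%) take larger shares than among all tiles (36.2%, 8.07% and 6.85%).

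Short letter patterns of DNA-binding proteins, searched on both strands, were compared with their shares in all tiles. The pattern of nuclear factor I, TTGGCA, was in 51 tiles (9.88%, all tiles 4.54%), and tiles high only in liver held it in 8.52%. The forkhead pattern TGTTTAC was in 13 tiles (2.52%, all tiles 1.05%, high only in brain 2.43%), the RFX pattern GTTGCC in 31 (6.01%, 3.35%) and the E-box CAGCTG in 39 (7.56%, 5.38%), which tiles high only in liver held in 11.1%. The GATA pattern AGATAA was in 13 tiles (2.52%) as against 4.24% of all tiles, 17.1% of those high only in brain and 10.4% of those low only in heart. For TEAD (GGAATG) the shares were 4.84% and 5.08% of all tiles, for AP-1 (TGANTCA) 2.71% and 2.32%, for SOX (CATTGT) 4.46% and 3.93%, and for SP (GGGCGG) 4.46% and 6.04%. MspI sites (CCGG) were in 64% of the heart-high tiles and 58.1% of all tiles. None of these patterns contains another, and a match is only a match of letters.

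Heart-high tiles came in short runs. Adjoining tiles merged into 428 separate regions, and 152 tiles (29.5%) had a heart-high tile directly beside them, as against 32.8% of the tiles low only in heart, 35.8% of those high only in liver and 23.9% of those high only in brain. There were 50 regions of 2 tiles and 14 of 3 or more, the longest of 8 tiles. Joining tiles up to 1000 bp apart gave 392 loci, of which 83 held more than 1 tile. By chromosome the share ran from 0.0262% of covered tiles on chromosome 17 to 0.108% on chromosome 8.

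The difference extended beyond the tiles that met the rule. In the 290 tiles directly beside a heart-high tile that did not themselves qualify, the median difference was 0.248 to liver and 0.241 to brain, and heart was above both means in 88.6%, as against 11.2% of all tiles. The difference fell with distance. It was 0.148 and 0.182 at 200 to 300 bp, 0.0376 and 0.0988 at 400 to 500 bp, and -0.000667 and 0.004 at 600 to 1000 bp. At 1100 to 2000 bp, where the medians were -0.00358 and 0.00117, the tiles were still closer to equality than the tiles outside the set as a whole (-0.0351 and -0.03). The median difference was thus small at 600 to 1000 bp but still above that of the tiles outside the set. Heart was above both means in 37.4% of tiles at that distance and in 29.4% at 1100 to 2000 bp, as against 11.1% outside the set. Neighbouring tiles can share RRBS fragments and reads.

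**Figure D3:**
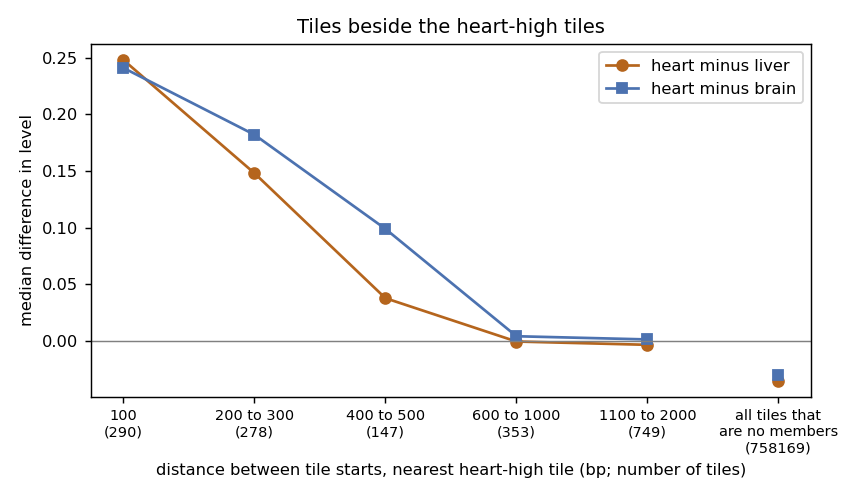
Median difference in methylation level (heart minus liver, heart minus brain) in tiles that were no members, by the distance from their start to that of the nearest heart-high tile, with the number of tiles in brackets. Both differences fall from about the same value beside a heart-high tile (0.248 and 0.241) to near 0 at 600 to 1000 bp.

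The largest gaps were outside promoters. The 3 tiles with the largest mean gap of any run (0.5887) lay between genes about 92 kb upstream of Dpt, which encodes the extracellular matrix protein dermatopontin. In the first of them the liver libraries ran from 0.123 to 0.312 (median 0.226), the brain libraries from 0.153 to 0.421 (0.207) and the heart libraries from 0.787 to 0.929 (0.878). The groups did not come near each other, and the gap was 0.6247, the largest of the set. The other tiles of that run were similar, with gaps of 0.5398 and 0.6017. A pair of tiles in intron 1 of Rtn1, a gene of the reticulon family of endoplasmic reticulum proteins, followed with gaps of 0.5733 and 0.5488. In the former the liver libraries ran from 0.191 to 0.386, brain from 0.122 to 0.349 and heart from 0.794 to 0.933.

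Others of the 10 tiles with the largest gaps were also intronic. A single-CpG tile in intron 1 of Sbk1, a kinase gene, lay on an island shore 1455 bp downstream of the nearest start and had a gap of 0.5503, with liver between 0.079 and 0.412, brain between 0.314 and 0.541 and heart between 0.9 and 0.986. Intron 7 of Kdm4b, which encodes a histone demethylase, had a tile with a gap of 0.5475 (heart 0.828 to 1). Intron 1 of Sik3, a kinase of the AMPK-related family, had one with a gap of 0.5347 (heart 0.769 to 0.941). Intron 2 of Nfia, which encodes a nuclear factor I protein, had one with a gap of 0.5285 (liver 0.157 to 0.257, brain 0.086 to 0.422, heart 0.774 to 0.868). In each of these the lowest heart library was above the highest of the other tissues. Sik3 held 5 heart-high tiles in all, in introns 1 and 3.

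The longest runs were at Casz1 (8 adjoining tiles), Hhex (6), and Cux2 and Tob1 (4 each). Runs of 3 tiles lay at genes of varied kinds, also near Dhx35 and in Fam169b, which are not described further. Casz1, a zinc finger transcription factor with a role in heart development, had 11 heart-high tiles among the 12 covered in 1200 bp of its last exon, exon 21, where the noncoding gene Gm13205 also starts. Of the 11 tiles 9 touched a CpG island. The tile with the most CpGs (15) ran from 0.101 to 0.258 in liver, from 0.034 to 0.075 in brain and from 0.597 to 0.703 in heart. Averaged over the 11 tiles, heart stood at 0.547, liver at 0.15 and brain at 0.0842, so heart was intermediate and not fully methylated. Of these tiles 8 lay just upstream of Gm13205 and were counted as promoter tiles, so this stretch supplied 8 of the 24 promoter tiles of the set.

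Hhex, a homeobox gene of liver and blood vessel development, had 6 adjoining tiles across exons 2 and 3, between 2310 and 2810 bp downstream of its start. The third of them ran from 0.095 to 0.292 in liver, from 0.112 to 0.25 in brain and from 0.643 to 0.712 in heart. Its CpG-rich start was unmethylated, no tile within 500 bp exceeding 0.034 in any tissue. In the last of the 6 the heart and brain libraries overlapped slightly (heart 0.494 to 0.781, brain 0.146 to 0.5). Tob1, which encodes an antiproliferative protein, showed the same arrangement, with 4 adjoining tiles in exon 2, 2397 to 2697 bp from the start. Its tiles averaged 0.219 in liver, 0.283 in brain and 0.635 in heart, while the highest level within 500 bp of the start was 0.0122.

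Cux2, a homeobox gene of neurons, had 4 adjoining tiles in intron 2, of which the highest in heart ran from 0.875 to 0.973 there, from 0.143 to 0.5 in liver and from 0.275 to 0.6 in brain. Erc2, a gene of the presynaptic active zone, had 3 in intron 4 with a mean of 0.909 in heart, 0.27 in liver and 0.417 in brain. Meis2, a homeobox gene, had 3 in intron 8 with means of 0.642, 0.221 and 0.16. In Erc2 and Cux2 it was liver that was lowest, and in Meis2 brain. The next loci of several tiles fall outside the rule by which tiles were named and were picked after their values were seen. Egr3, an immediate early transcription factor, had 5 tiles in exon 3 (0.0982 in liver, 0.14 in brain, 0.516 in heart). Sipa1, a GTPase-activating protein for Rap, had 5 in exons 9 and 10 (0.219, 0.128 and 0.574), and Irs2, an adaptor of the insulin receptor, had 6 in its coding exon 1 and intron 1, 2878 to 5078 bp from the start. Ncald, which encodes a neuronal calcium sensor, had 3 in intron 3, just inside an alternative start, and the one 360 bp from that start was at 0.245 in liver, 0.301 in brain and 0.795 in heart.

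Cholesterol and fatty acid synthesis genes were a frequent location. A list of 26 such genes was written after Fasn and others of them had been seen in the set, so its count is a description and no independent evidence. Of the 26 genes 7 had a heart-high tile within the gene or 10000 bp of it (26.9%, as against 1.86% of 24144 genes with covered tiles), and 16 of the 1032 tiles of the list were heart-high (1.55%, as against 0.0680% of all tiles). In 15 of these 16 every heart library was above every other library, much as in the whole set of heart-high tiles (93.2%). The tiles were between 0.584 and 0.967 in heart, 0.174 and 0.577 in liver and 0.122 and 0.574 in brain. The same list held 8 tiles that were low only in heart.

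Hmgcs1 acts early in cholesterol synthesis. In this gene, which encodes the cytosolic HMG-CoA synthase, a pair of tiles lay in intron 1, 1900 and 2100 bp downstream of the start. They averaged 0.903 in heart, 0.316 in liver and 0.446 in brain. In the single-CpG tile at 2100 bp the brain libraries ran from 0.237 to 0.8, up to the edge of the heart range (0.804 to 1). All 100 bases of the tile at 1900 bp were repeat-masked. A tile in coding exon 2 met the rule as well. The start of the gene was unmethylated in all tissues, the highest tile mean within 500 bp being 0.0232.

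Sqle and Cyp51 showed a similar arrangement, whereas the tiles of Fdft1 and Srebf2 lay in later introns. Fdft1, squalene synthase, had 2 tiles in intron 3, farther from its start, at 0.951 and 0.967 in heart, 0.571 and 0.455 in liver and 0.56 and 0.574 in brain. All 100 bases of each of these Fdft1 tiles were repeat-masked. Sqle, squalene epoxidase, had 2 in intron 1, 2059 and 2159 bp downstream, where the first ran from 0.163 to 0.256 in liver, 0.195 to 0.457 in brain and 0.524 to 0.739 in heart. Cyp51, lanosterol demethylase, had 2 in intron 1, 1246 and 1346 bp downstream. At 1246 bp the lowest heart library (0.455) was barely above the highest brain library (0.45). Srebf2, the transcription factor that activates this pathway, had 2 in intron 11, and in one of them brain (0.269 to 0.623) overlapped heart (0.614 to 0.8). The liver libraries were widely spread at 1346 bp in Cyp51, from 0.219 to 0.645. That tile and the one at 2159 bp in Sqle each held a single CpG.

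Of the 7 genes of the list with a heart-high tile, 2 act in fatty acid synthesis. Fasn, the fatty acid synthase, had 3 tiles between 1696 and 2896 bp downstream of its start, in coding exon 2 and introns 2 and 3. Their means were 0.21 in liver, 0.248 in brain and 0.685 in heart. The tiles at 1896 and 2896 bp each held a single CpG. Elovl6, a fatty acid elongase, had 2 tiles in intron 2, at 0.904 and 0.831 in heart, the latter with a single CpG. In all, 9 tiles of 4 genes of the list lay 1000 to 5000 bp downstream of a start of the gene. The tiles 500 to 5000 bp downstream had median levels of 0.728 in heart, 0.218 in liver and 0.281 in brain for Fasn, and of 0.619, 0.203 and 0.19 for Sqle. In both genes the liver and brain levels thus stayed low over a longer stretch than the heart level did.

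**Figure D4:**
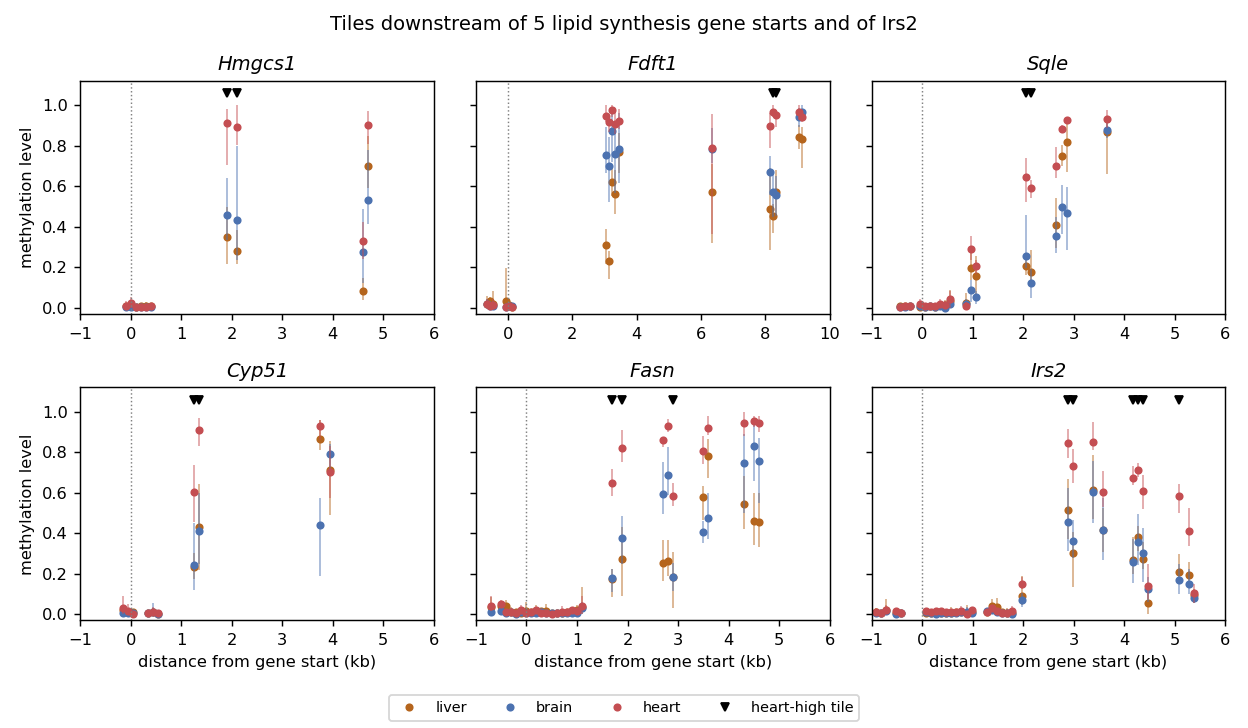
Methylation level of each covered tile (dots, mean of a tissue; vertical lines, lowest to highest library) against the distance from the gene start in kb, for 5 lipid synthesis genes and Irs2, with heart-high tiles marked by triangles. All tissues are near 0 at the start, and at the heart-high tiles downstream heart lies above liver and brain, as in Fasn (median 0.728 against 0.218 and 0.281 over 500 to 5000 bp).

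Heart muscle genes were listed from textbook markers. Of 20 heart muscle genes with covered tiles 4 had a heart-high tile in or within 10000 bp (20%, as against 1.86% of all genes), and all 4 encode transcription factors of heart development (Gata4, Tbx5, Tbx20 and Hand2). No heart-high tile was found at the other genes of the list, which include the factors Nkx2-5 and Mef2c beside contractile and ion-handling genes. The 1009 tiles of the list held 8 heart-high tiles (0.793%, as against 0.0680% of all tiles) and 76 low only in heart (2.11% of all tiles were), and their median difference was -0.0792 to liver and -0.0677 to brain. Tiles low only in heart thus outnumbered heart-high tiles at these genes, as they did over all tiles.

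Tbx5, a T-box factor of the heart and forelimb, had 3 adjoining tiles at the junction of coding exon 5 and intron 5. In the exon tile the liver libraries ran from 0.022 to 0.099, brain from 0.029 to 0.065 and heart from 0.493 to 0.551. In the last of the 3, 7388 bp from the start, they ran from 0.03 to 0.165, 0.018 to 0.038 and 0.366 to 0.463. Both other tissues were almost unmethylated here, and the heart reached about the middle of the scale. Hand2, a basic helix-loop-helix factor, had 2 tiles 5968 and 6668 bp downstream of its start, at 0.457 and 0.417 in heart, 0.0756 and 0.0724 in liver and 0.132 and 0.117 in brain.

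The noncoding RNA gene Hdnr, which starts beyond Hand2 on the same strand, had 7 of 7 covered tiles in 2200 bp of its exon 2 and intron 2, at 24368 to 26468 bp from the start of Hand2. Averaged over these tiles, heart stood at 0.653, liver at 0.189 and brain at 0.124. In the tile with the largest gap (0.5401) liver ran from 0.037 to 0.5 with a median of 0.129, brain from 0.047 to 0.098 and heart from 0.538 to 0.867. The highest liver library thus came close to the heart range, while brain was low throughout. At the start of Hand2 itself no tile mean within 500 bp exceeded 0.0333.

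Upstream of Gata4, a zinc finger factor of heart and gut, 2 tiles 5780 and 7280 bp before the start met the rule. In the nearer one, a single-CpG tile of repeat-masked sequence, liver (0.065 to 0.468) overlapped heart (0.439 to 0.667). The farther one ran from 0.07 to 0.228 in liver, 0.079 to 0.294 in brain and 0.38 to 0.61 in heart. Tbx20 had 1 tile 4648 bp before its start, at 0.283 in liver, 0.16 in brain and 0.723 in heart. In the developmental list, which holds every Hox gene, 2 of 63 genes had heart-high tiles (3.17%, near the 1.86% of all genes). These were Meis2 and Tbx2, a T-box repressor with tiles in intron 1, coding exon 2 and intron 3, while no Hox gene had one.

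**Figure D5:**
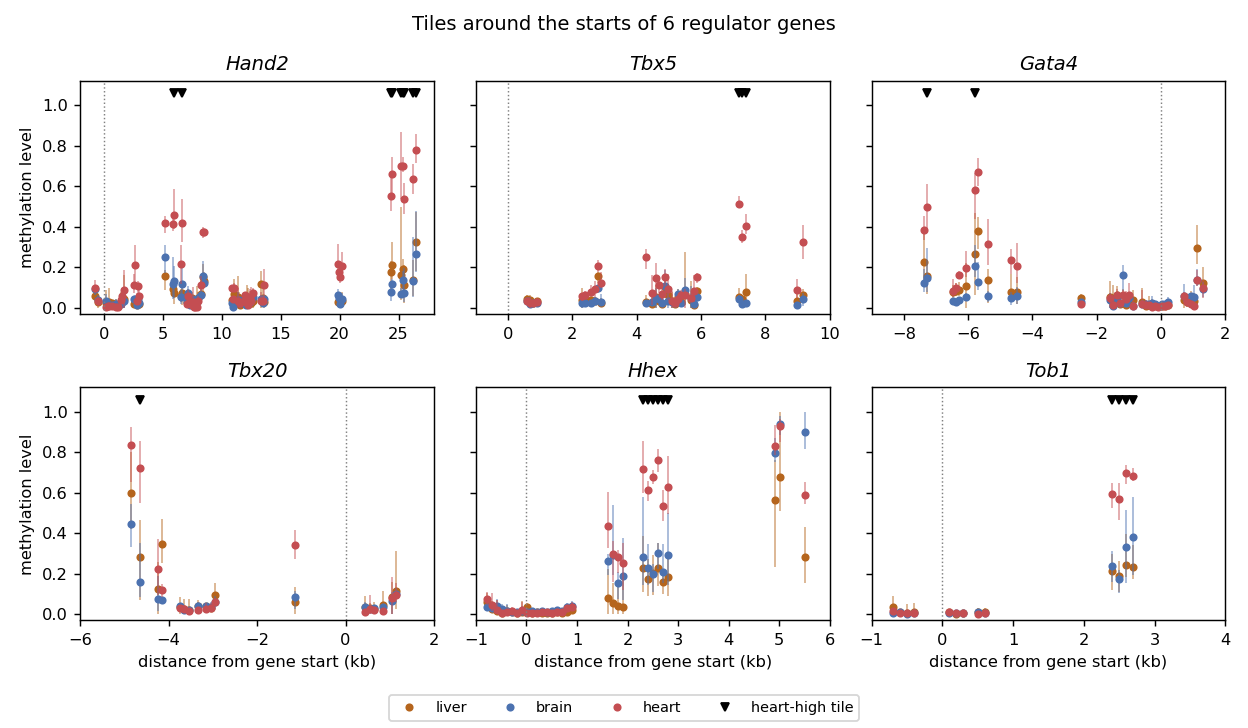
Methylation level of each covered tile (dots, mean of a tissue; vertical lines, lowest to highest library) against the distance from the gene start in kb, for Hand2 with the downstream Hdnr stretch, Tbx5, Gata4, Tbx20, Hhex and Tob1, with heart-high tiles marked by triangles. Covered tiles within 500 bp of a start are near 0 in all tissues, but Tbx5 has no covered tile there. The heart-high tiles at Hand2 lie 5968 to 26468 bp downstream.

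For the other lists the all-gene share of 1.86% is well under 1 gene per list, so their counts are near the background. There were none near the 22 hepatocyte, 10 endothelial, 12 macrophage and blood, 21 imprinted and 13 germline genes with covered tiles, and the endothelial genes had 72 tiles low only in heart among their 500 tiles (2.11% of all tiles were). One gene each was found among 22 neuron and glia genes (Map2), 19 genes shared by liver and brain (Slc38a3), 10 fibroblast genes (Postn) and 12 skeletal muscle and myogenic genes (Pax3). The Map2 tile, 1822 bp downstream of its start in intron 1, ran from 0.088 to 0.211 in liver, 0.083 to 0.14 in brain and 0.485 to 0.607 in heart. In Slc38a3, a glutamine transporter gene, the tile in intron 1 was at 0.184, 0.303 and 0.616, and in Postn, which encodes the matrix protein periostin, the tile in coding exon 22 was at 0.476, 0.537 and 0.845. In Pax3, a factor of the myogenic and neural crest lineages, the tile in intron 4 was at 0.295, 0.319 and 0.662. The part of cell mixture in these levels was not tested.

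Promoters held 24 heart-high tiles, and in all 24 every heart library was above the others, as in 93.2% of the whole set. Of the 24 tiles, 8 belonged to the single stretch at Casz1 and Gm13205. The largest gap of the promoter tiles (0.4916) was between alternative starts of Nfix, a nuclear factor I gene. This tile was centred 59 bp downstream of one start and within 1000 bp upstream of the next. It ran from 0.08 to 0.282 in liver, 0.066 to 0.228 in brain and 0.524 to 0.77 in heart. Arpp21, which encodes a cAMP-regulated phosphoprotein, had a tile 204 bp upstream of a start at 0.256 in liver, 0.308 in brain and 0.796 in heart. Leaving aside the stretch at Casz1 and Gm13205, next came a pair at the noncoding gene D030045P18Rik with gaps of 0.4712 and 0.4545. A tile upstream of the noncoding gene Gm16279, within coding exon 3 of the tubulin acetyltransferase gene Atat1, had a gap of 0.4508. Below it were one at Mgat4c, a glycosyltransferase gene (0.4045), and one at Hes3, a basic helix-loop-helix repressor (0.4012). The promoter tiles were lower in each tissue than the intronic ones, with medians of 0.181 in liver, 0.115 in brain and 0.599 in heart as against 0.276, 0.369 and 0.778.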

How the data were processed

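Reduced representation bisulphite libraries were prepared, sequenced and mapped by a commercial service, and the submitters' processing notes name Bismark, methylKit and mm10. The authors deposited 1 table per tissue with the methylated fraction of each 100 bp tile in each library, after a coverage minimum in all libraries of that tissue. Read counts are not in these tables, so the depth is unknown and no interval for a single level is given. Columns carry running numbers only and were assigned to the tissue of their table, so gender was not compared, and within a tissue the replicates are libraries of separate mice per the labels, 12 mice in all. Mice 75538 and 75541 have different genders in different tissues in the labels.

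Tissue levels were means over all libraries. Tiles were placed on RefSeq curated transcripts of mm10, and CpG islands (over 200 bp, GC at least 0.5, observed to expected CpG above 0.6) were called on the repeat-masked genome. Shared tiles contained a CpG in 99.9% of cases, and in 55.8% when moved by 100000 bp, which checked the build. Tiles named were the 10 with the largest gap, the 8 regions with most tiles, the 10 promoter tiles with the largest gap, up to 12 near genes of fixed lists, and the nearest to the threshold. A few items that these rules would name are not reported here. The members and lists were chosen with earlier results of these data known. Work used Python 3.11.15, numpy 2.4.6, pandas 2.3.3, scipy 1.17.1 and matplotlib 3.10.9, and the steps were tested on simulated data.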

Additional observations from a re-analysis of the deposited data

Results flagged for a closer look

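Among 120 groups of 6 libraries examined (brain and heart, for the named tiles and for the means over all heart-high tiles), 8 held a library far from the other 5, with a gap to its nearest neighbour above 0.625 of the range of the group. Chance flags about 1 in 20 such groups, and neighbouring tiles are not independent. In brain the highest library was at 0.213 in the Meis2 tile at chr2:116009401-116009500 (others 0.082 to 0.125) and at 0.233 in the Casz1 tile at chr4:148952901-148953000 (0.062 to 0.092). The highest brain library was also far from the others at Nfix, Tbx20 and Gata4. It was at 0.228 in the Nfix promoter tile (0.066 to 0.081) and at 0.354 in the Tbx20 tile (0.087 to 0.167). In the Gata4 tile 7280 bp upstream it was at 0.294 (0.079 to 0.139). The lowest brain library was at 0.122 in the Tbx2 tile at chr11:85834501-85834600 (0.191 to 0.232). In heart the highest library was at 0.703 in the Casz1 tile at chr4:148952401-148952500 (0.597 to 0.63) and at 0.587 in the tile between Hand2 and Hdnr (0.389 to 0.456). In all 8 tiles every heart library was above every liver and brain library. The cause of these single values was not tested.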

How the results depend on the processing

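The number of heart-high tiles followed the thresholds: 128 at a gap of at least 0.4, 912 at 0.25 and 338 with liver and brain within 0.1. With medians in place of means it was 553. Leaving out 1 heart library gave 509 to 533 tiles and 1 brain library 461 to 580, and 86% to 97.1% of the 516 tiles were kept. Tiles of at least 2 CpGs numbered 434. Of the alternatives added after the data were seen, leaving out repeat-masked tiles gave 497 tiles, and shifting each tissue so that its median difference to heart was 0 gave 725, with 4.28% in promoters and 6.48% touching an island. At a gap of at least 0.4 the promoter share was 8.59%, the island share 3.12%, the median number of CpGs 2 and the share with every heart library above the others 99.2%. Promoters of 2000 bp held 7.17%. Islands called on unmasked sequence left the island share at 6.2%, and merging up to 1000 bp left 392 regions. No paired analysis was possible because the columns carry no mouse numbers and no test was run.

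The depth behind each level is unknown, and a tile of a single CpG rests on fewer calls: every heart library was above the others in 85.4% of single-CpG tiles as against 96.9% of tiles with 5 or more CpGs. Tissues were sectioned whole, so cell mixture and tissue cannot be told apart, and comparisons are limited to tiles covered in all 3 tissues.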
